A study of Mus musculus with 8 samples.

Results

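Complex I of the respiratory chain is built from subunits of 2 genomes, and the 35 genes described here encode subunits that are made in the cytosol and imported into mitochondria. They were taken by gene symbol from a table of 48328 genes, of which 10521 were tested, and all 35 were found and all 35 tested. Their transcripts were measured by RNA sequencing in the tibialis anterior, which lies along the shin, of C57BL/6J mice aged 24 months. The groups were 4 samples of K320E-skm mice, in which skeletal muscle makes a dominant mutant of the mitochondrial DNA helicase Twinkle, and 4 of wild-type mice. By the labels each genotype had 2 males and 2 females, no treatment is named, and the tissue was frozen before total RNA was taken from the lower part of the muscle. The promoter that drives the mutant protein is not given in the sources used here. The labels give each sample its own number with a letter for sex, without saying that the number is that of an animal. A p-value therefore reflects the spread among these 8 samples only, which may be technical. In a whole piece of muscle, fewer cells of a type and less RNA per cell cannot be told apart.

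Complex I takes electrons from NADH, passes them through a flavin and a chain of iron-sulfur clusters to ubiquinone, and moves protons across the inner membrane. A matrix arm holds the NADH-binding module and the quinone module, and a membrane arm holds the proton-pumping module, whose proximal and distal ends are assembled separately. The core subunits of the membrane arm are encoded by mitochondrial DNA, and the other subunits, core and supernumerary, by nuclear genes. Muscle is rich in mitochondria, and defects of complex I are among the most frequent causes of inherited mitochondrial disease.

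Nuclear genes of the respiratory chain are scattered over the genome and are known to share promoter elements for NRF-1, GABP (an ETS factor), ERR receptors and YY1. The 35 genes lay on 15 chromosomes, with 2 of them, Ndufa1 and Ndufb11, on the X chromosome. RefSeq promoter windows of 300 bases, from 250 before to 50 after the start site on GRCm38.p6, were matched by symbol for 32 of the 35 genes, and Ndufa2, Ndufb9 and Ndufs1 had none. The 3 windows below are shown because together they carry NRF-1, ERR and YY1 motifs in genes whose levels are followed further on. All are on the minus strand and written 5′ to 3′, and capitals mark the motifs. Ndufa8 lies at chr2:36049289-36049588 and holds overlapping matches of both NRF-1 forms, the first starting 8 bases before the start site. Ndufb4 lies at chr16:37654319-37654618 with an ERR half-site whose first base is 55 bases before the start site. Ndufb8 lies at chr19:44555393-44555692, with an NRF-1 match and, further on, a YY1 match, both after the start site.
Ndufa8: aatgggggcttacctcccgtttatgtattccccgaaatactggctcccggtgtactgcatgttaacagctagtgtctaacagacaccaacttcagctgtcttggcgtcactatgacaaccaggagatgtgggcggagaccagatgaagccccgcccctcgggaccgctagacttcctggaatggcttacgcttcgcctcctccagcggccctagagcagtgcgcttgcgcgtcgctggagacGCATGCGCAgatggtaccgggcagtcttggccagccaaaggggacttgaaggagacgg
Ndufb4: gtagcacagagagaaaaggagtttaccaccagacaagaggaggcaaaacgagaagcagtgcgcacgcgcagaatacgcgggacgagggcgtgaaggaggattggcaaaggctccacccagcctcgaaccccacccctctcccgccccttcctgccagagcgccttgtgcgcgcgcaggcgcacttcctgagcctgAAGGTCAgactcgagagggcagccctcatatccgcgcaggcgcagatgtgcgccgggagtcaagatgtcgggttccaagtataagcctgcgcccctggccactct
Ndufb8: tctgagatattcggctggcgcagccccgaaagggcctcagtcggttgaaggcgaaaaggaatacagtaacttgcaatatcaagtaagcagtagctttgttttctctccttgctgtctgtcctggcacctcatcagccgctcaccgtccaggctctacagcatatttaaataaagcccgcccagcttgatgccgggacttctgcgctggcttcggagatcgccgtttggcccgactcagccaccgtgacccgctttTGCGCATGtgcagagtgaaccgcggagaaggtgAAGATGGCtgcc

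Exact matches on both strands were counted for 5 motifs among the 32 windows and among those of 27025 genes. YY1 (AAGATGGC) was in 21.9% of the complex I windows, those of Ndufa3, Ndufa9, Ndufb8, Ndufc1, Ndufs4, Ndufs6 and Ndufs7, and in 3.19% of all windows. The NRF-1 form TGCGCATG was in 12.5% against 2.42%, in Ndufa6, Ndufa8, Ndufb6 and Ndufb8. The NRF-1 form GCATGCGC, whose matches overlap those of the first form in some windows, was in 9.38% against 3.05%, in Ndufa6, Ndufa8 and Ndufa11. The ETS motif CCGGAAG (12.5% against 9.93%; Ndufb6, Ndufb7, Ndufs3 and Ndufs8) and the ERR half-site AAGGTCA (9.38% against 5.38%; Ndufb2, Ndufb4 and Ndufs5) differed less from the share among all genes. In all, 17 of the 32 windows held at least 1 of these motifs. These are matches of letters, not measured binding, and no binding data were part of the study.

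Values are FPKM, fragments scaled to the length of the transcript and to the mapped fragments of the library, which allow levels of different genes to be compared per length, and the absolute depth of the libraries is unknown. Twnk, the gene of Twinkle, checked the labels: it stood at 4.62 ± 0.557 FPKM (SD, n = 4) in K320E-skm muscle and 2.37 ± 0.245 FPKM in the wild type, without overlap. K320E-skm 4, labelled male, had Xist at 10.2 FPKM and Ddx3y at 0.0117 FPKM, like the libraries labelled female, so the reported values come from a fit without a sex term. By these transcripts K320E-skm 1 was the only male library of its genotype, beside wild-type 1 and wild-type 3. Muscle transcripts were abundant, with Ckm at 5421 to 6664 FPKM in K320E-skm and 6560 to 7408 FPKM in wild-type libraries. The 3 satellite cell markers summed to less than 1 FPKM in every library. Mitochondrial ribosomal RNA took 44.8% ± 2.53 (SD, n = 4) of all FPKM in K320E-skm muscle and 35.4% ± 2.97 in wild-type libraries, without overlap. The median of all tested genes lay at -0.14 on the log2 scale in K320E-skm against wild-type muscle, and at 0.00 after each library was rescaled by its median ratio. Of the 35 complex I genes, 20 changed sign with that rescaling, so the direction of a single gene below is that of the deposited scaling unless both are given.

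The complex I genes were among the more abundant transcripts of the muscle. Their mean levels over the 8 libraries ran from 18.5 FPKM for Ndufa11 to 388 FPKM for Ndufb9, a range of 21.0-fold, with a median of 122 FPKM. There were 13 genes below 100 FPKM, 14 between 100 and 200 FPKM and 8 above 200 FPKM. Of the 35 genes, 34 stood at or above the 90th percentile of the 9606 protein-coding genes tested, and the median percentile was 97.4. Only Ndufa11, a subunit of the membrane arm, lay lower, at the percentile of 85.3. Transcripts were short, with a median annotated length of 704 bases (419 for Ndufa1 to 4435 for Ndufb7) against 1443 for all tested protein-coding genes. For a gene with an even number of transcripts, the longer of the middle 2 was taken. The value of Ndufb7 is thus the longer of its 2 annotated transcripts, of which 1 is coding. Cufflinks divides fragments among copies and overlapping genes, and 6 of the 35 genes shared over 5% of their 75-base stretches with another annotated gene: Ndufb4 (35.2%, mostly with Ndufb4c), Ndufs3 (27.1%), Ndufs5 (24.1%), Ndufb9 (20.3%), Ndufa12 (11.8%) and Ndufab1 (10.9%). Another annotated gene overlapped 18 of the 35, and for 6 of these, Ndufa10, Ndufa13, Ndufb2, Ndufb8, Ndufb9 and Ndufc2, it lay on the same strand. The levels of all these genes are uncertain to that extent.

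**Figure D1:**
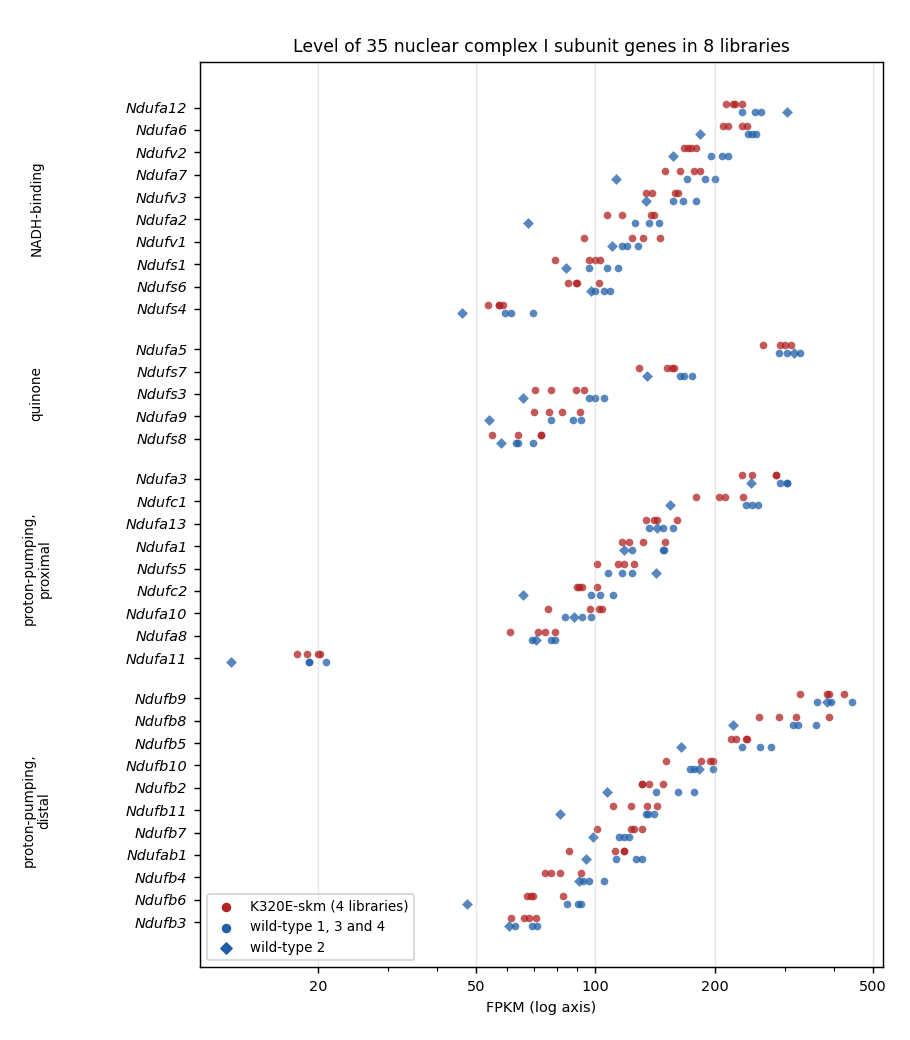
FPKM (log axis) of the 35 nuclear complex I genes, grouped by module and ordered by mean level, with 1 point for each of 4 K320E-skm libraries (red) and 4 wild-type libraries (blue, with wild-type 2 as a diamond). Levels run from 18.5 FPKM for Ndufa11 to 388 FPKM for Ndufb9, the genotypes overlap for every gene, and the diamond is often the leftmost point.

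No nuclear complex I gene passed the test for a difference between genotypes, and the measured differences were small. The log2 fold changes of K320E-skm against wild-type ran from -0.25 (Ndufb4) to 0.13 (Ndufa2 and Ndufa11), with a median of -0.05, and 22 lay below 0 and 13 above. By limma, 0 of 35 passed an adjusted p of 0.05, which 0.0190% of all tested genes did (2 of 10521). At an unadjusted p of 0.05, 0 of 35 were lower, against 13.6% of all tested genes, and 0 of 35 were higher, against 1.07%. In 0 of 35 did all 4 K320E-skm libraries lie below all 4 wild-type libraries, as in 9.59% of all tested genes, and in 0 of 35 above, as in 0.333%. The smallest p was that of Ndufb4 (0.0724 by limma, adjusted p = 0.372).

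How large a difference the libraries leave possible under the deposited scaling is given by the 95% confidence intervals. They do not cover the choice of scaling, which moved the median of the 35 genes from -0.05 to 0.13 with median-ratio rescaling. For 27 of the 35 genes the interval lay within 0.5 of 0 on the log2 scale, which is 1.41-fold, and for 34 within 0.6. Across all 35 the intervals reached from -0.54 (Ndufb6) to 0.65 (Ndufa2). The summed level of the 35 genes was 4772, 5515, 5010 and 4973 FPKM in the 4 K320E-skm libraries, in order of their number, and 5646, 4507, 5427 and 5518 FPKM in the 4 wild-type libraries. The means were 5068 ± 316 (SD, n = 4) and 5274 ± 519 FPKM, and the groups overlapped: wild-type 2 had the lowest sum of all 8 libraries, and K320E-skm 2 lay above wild-type 3.

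The direction of the median changed with the scaling, and its size with wild-type 2. After median-ratio rescaling the median was 0.13, with 33 genes above 0 and 2 (Ndufa12 and Ndufb4) below, and 0 of 35 were higher at an unadjusted p of 0.05, against 5.19% of all tested genes. Before rescaling, 31 of the 35 already lay above the median of all tested genes. With wild-type 2 left out and no rescaling, the median was -0.14, beside -0.15 for all tested genes, and 31 of 35 lay below 0. Then 1 of 35, Ndufb6, was lower at an unadjusted p of 0.05 (-0.30, limma adjusted p = 0.29), against 15.0% of all tested genes. Without that library 9 of 35 lay lower without overlap (Ndufa3, Ndufa6, Ndufb4, Ndufb6, Ndufc1, Ndufs3, Ndufs4, Ndufs7 and Ndufv2), against 16.6% of all tested genes. With both changes, an alternative chosen after the data were seen, the median was 0.05.

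**Figure D2:**
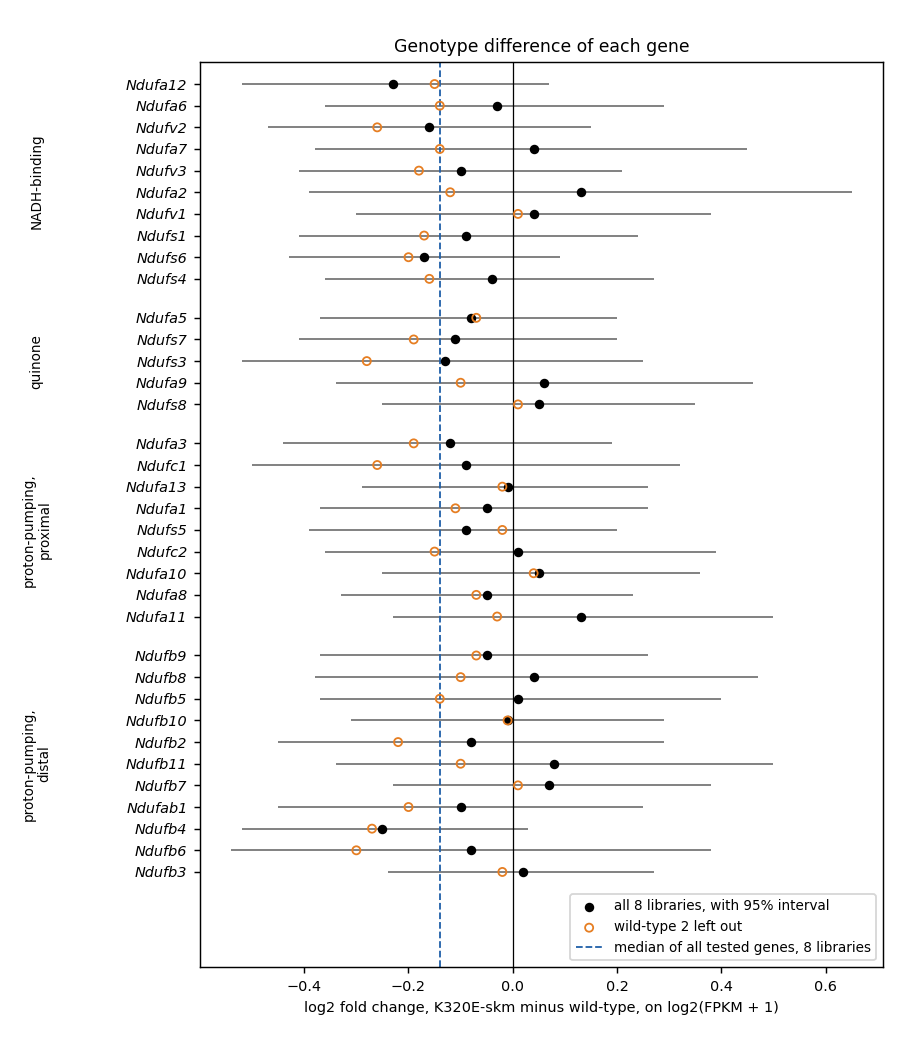
Log2 fold change of K320E-skm against wild-type for each of the 35 genes on log2(FPKM + 1), with 95% intervals (filled points, 8 libraries) and with wild-type 2 left out (open circles). Every interval crosses 0, most filled points lie right of the median of all tested genes (-0.14, dashed line), and leaving out wild-type 2 moves the median of the genes from -0.05 to -0.14.

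The NADH-binding module oxidises NADH at the tip of the matrix arm. Its 10 genes summed to 1432 ± 70.9 FPKM (SD, n = 4) in K320E-skm muscle and 1518 ± 147 FPKM in the wild type, with a median log2 fold change of -0.06 and 7 of 10 below 0. After rescaling the median was 0.11, and 1 of 10 lay below 0.

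Among its core subunits, Ndufv1 binds NADH and carries the flavin. Ndufv1 (chromosome 19, 4007384 to 4012806, GRCm38) was at 93.7, 146, 132 and 124 FPKM in K320E-skm libraries 1 to 4 and at 117, 110, 120 and 128 FPKM in wild-type libraries 1 to 4, the order kept below. Both the lowest and the highest value were in K320E-skm libraries, and the fold change was 0.04 (SE 0.15). Ndufv2, an iron-sulfur subunit beside Ndufv1, was at 167, 179, 171 and 174 FPKM against 209, 157, 196 and 216 FPKM. The K320E-skm values lay close together, 3 wild-type values were above them all and wild-type 2 was below them all, with a fold change of -0.16 (SE 0.14; exact permutation p = 0.143). Without wild-type 2 it was -0.26 (limma adjusted p = 0.315). Ndufs1, the largest subunit and the carrier of several iron-sulfur clusters, was at 79.0 to 103 FPKM in K320E-skm muscle and 84.2 to 114 FPKM in the wild type.

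The supernumerary subunits of this module included the most differing genes of the matrix arm. Ndufa12, a subunit added late at the junction with the quinone module, was at 214, 235, 223 and 225 FPKM in K320E-skm muscle and at 261, 305, 235 and 253 FPKM in the wild type. Only K320E-skm 2 and wild-type 3, both at 235, met, and wild-type 2 was the highest. The fold change was -0.23 (SE 0.13, 95% interval -0.52 to 0.07; exact permutation p = 0.0571, limma adjusted p = 0.431), and -0.04 after rescaling. Ndufs6, a zinc-binding subunit needed to complete the module, was at 85.5, 102, 89.8 and 89.6 FPKM against 100, 97.5, 109 and 105 FPKM. K320E-skm 2 alone reached into the wild-type range, with a fold change of -0.17 (SE 0.12; exact permutation p = 0.0857) that became 0.01 after rescaling.

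Ndufs4, whose loss in mice and in people causes a Leigh-like encephalopathy, was at 57.3, 58.5, 57.3 and 53.7 FPKM in K320E-skm muscle and at 69.9, 46.2, 59.2 and 61.3 FPKM in the wild type. All K320E-skm values lay between wild-type 2 and the other wild-type values. Ndufa2, a small subunit with a thioredoxin fold, was at 141, 138, 117 and 107 FPKM against 145, 67.7, 137 and 126 FPKM. Its fold change of 0.13 (SE 0.23) had the widest interval of the set, -0.39 to 0.65, and was -0.12 without wild-type 2. Ndufa6, an LYR protein that binds the acyl carrier protein, Ndufa7 and Ndufv3 had fold changes of -0.03, 0.04 and -0.10. Each had its lowest value or its next to lowest in wild-type 2 (184, 113 and 134 FPKM).

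The quinone module passes electrons to ubiquinone at the base of the matrix arm. Its 5 genes summed to 670 ± 35.2 FPKM (SD, n = 4) in K320E-skm muscle and 704 ± 52.4 FPKM in the wild type, with a median of -0.08 and 3 of 5 below 0. After rescaling all 5 lay above 0, with a median of 0.10.

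Ndufs7, which carries the last iron-sulfur cluster before ubiquinone, was at 129, 158, 152 and 156 FPKM in K320E-skm muscle and at 175, 135, 164 and 167 FPKM in the wild type. Apart from wild-type 2, the wild-type values were above all K320E-skm values, and the fold change was -0.11 (SE 0.14). Ndufs3, a core subunit with which assembly of the module begins, was at 70.7, 93.6, 77.6 and 89.3 FPKM against 105, 65.8, 96.6 and 99.8 FPKM, the same arrangement. Its fold change was -0.13 (SE 0.17) and -0.28 without wild-type 2 (limma adjusted p = 0.332).

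Ndufs8, an iron-sulfur subunit between the flavin and the last cluster, had a fold change of 0.05 (66.2 ± 8.69 against 63.6 ± 4.9 FPKM; SD, n = 4). Ndufa5, a supernumerary subunit on the side of the arm, was the most abundant of the module at 293 ± 20.3 against 310 ± 16.0 FPKM, and it was one of the few genes that wild-type 2 did not hold low (317 FPKM). Ndufa9, a subunit with a nucleotide-binding fold at the base of the arm, was at 80.1 ± 9.14 against 77.8 ± 17.0 FPKM, with wild-type 2 lowest at 54.0 FPKM.

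The proximal part of the proton-pumping module joins the membrane arm to the matrix arm. Its 9 genes summed to 1141 ± 78.5 FPKM (SD, n = 4) in K320E-skm muscle and 1193 ± 103 FPKM in the wild type, with a median of -0.05 and 6 of 9 below 0. After rescaling all 9 were above 0, with a median of 0.13.

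Ndufa8, whose promoter with the overlapping NRF-1 matches is printed above, is a cysteine-rich subunit of the intermembrane space. It was at 61.0, 79.3, 71.6 and 74.9 FPKM in K320E-skm muscle and at 79.4, 70.8, 77.4 and 69.2 FPKM in the wild type, and the groups overlapped throughout (-0.05, SE 0.13). Ndufs5, another cysteine-rich subunit on that side, was at 101, 118, 114 and 125 FPKM against 124, 142, 108 and 117 FPKM, with wild-type 2 the highest (-0.09, SE 0.13).

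Ndufc1, a small membrane subunit, was at 179, 236, 205 and 212 FPKM in K320E-skm muscle and at 257, 154, 240 and 248 FPKM in the wild type. Wild-type 2 was at the bottom, the K320E-skm libraries above it, and the other wild-type libraries at the top. Its fold change was -0.09 (SE 0.19) with all libraries and -0.26 without wild-type 2 (limma adjusted p = 0.369). Ndufc2, its neighbour in the complex, had a fold change of 0.01, with wild-type 2 again lowest at 65.6 FPKM. Ndufa3, the most abundant gene of the proximal part, was at 286, 286, 249 and 235 FPKM against 292, 247, 305 and 305 FPKM (-0.12, SE 0.14).

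Ndufa1, an X-linked subunit without which the complex does not assemble, was at 130 ± 14.5 against 135 ± 16.2 FPKM (SD, n = 4). Ndufa13, also known as GRIM-19, was at 145 ± 11.2 against 146 ± 8.74 FPKM, with a fold change of -0.01 (SE 0.12, 95% interval -0.29 to 0.26). Ndufa10, a subunit related to nucleoside kinases, was at 94.7 ± 12.9 against 90.7 ± 5.86 FPKM. Ndufa11, the least abundant gene of the 35, was at 18.8, 20.2, 20.0 and 17.7 FPKM in K320E-skm muscle and at 19.0, 12.1, 19.0 and 21.0 FPKM in the wild type. Apart from wild-type 2 the Ndufa11 values lay within a narrow band, and the fold change went from 0.13 to -0.03 when that library was left out.

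The distal part of the proton-pumping module forms the far end of the membrane arm. Its 11 genes summed to 1824 ± 153 FPKM (SD, n = 4) in K320E-skm muscle and 1860 ± 226 FPKM in the wild type, with a median of -0.01 and 6 of 11 below 0. After rescaling the median was 0.17, and 1 of 11, Ndufb4, lay below 0.

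Ndufb4, whose promoter with the ERR half-site is printed above, had the largest difference of all 35 genes. This membrane subunit was at 92.0, 81.6, 74.8 and 77.2 FPKM in K320E-skm muscle and at 105, 91.1, 93.3 and 96.3 FPKM in the wild type. Only K320E-skm 1 and wild-type 2 kept the genotypes from separating. The fold change was -0.25 (SE 0.12, 95% interval -0.52 to 0.03; exact permutation p = 0.0571) and -0.06 after rescaling, and the shared sequence with Ndufb4c leaves the level itself uncertain.

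Ndufb8, whose NRF-1 and YY1 matches are printed above, is the subunit most often probed on immunoblots as a sign of assembled complex I. It was at 259, 388, 291 and 321 FPKM in K320E-skm muscle and at 361, 223, 316 and 325 FPKM in the wild type. The spread within each genotype was far larger than the difference of 0.04 (SE 0.19). Ndufb9, an LYR protein and the most abundant of the 35, was at 329, 424, 385 and 388 FPKM against 443, 384, 362 and 392 FPKM, overlapping throughout. Ndufab1, the mitochondrial acyl carrier protein that docks on the LYR subunits of both arms, was at 108 ± 15.3 against 116 ± 16.3 FPKM (SD, n = 4).

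Ndufb6, a membrane subunit, was at 67.3, 82.9, 69.9 and 68.8 FPKM in K320E-skm muscle and at 85.0, 47.5, 91.9 and 90.4 FPKM in the wild type. The other 3 wild-type values were above all K320E-skm values, and wild-type 2 was below them all. Its fold change was -0.08 (SE 0.21), the one gene past an unadjusted p of 0.05 when wild-type 2 was left out. Ndufb11, an X-linked membrane subunit, was at 135, 143, 123 and 111 FPKM against 136, 81.7, 141 and 134 FPKM, and its fold change went from 0.08 to -0.10 without wild-type 2.

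Ndufb7 and Ndufb10, cysteine-rich subunits of the intermembrane space, had fold changes of 0.07 and -0.01. The single-span membrane subunits Ndufb2, Ndufb3 and Ndufb5 were at -0.08, 0.02 and 0.01. Ndufb10 was at 182 ± 21.7 against 183 ± 10.8 FPKM (SD, n = 4) and Ndufb3 at 66.6 ± 4.1 against 66.0 ± 5.03 FPKM, while wild-type 2 was lowest for Ndufb2 (107 FPKM) and Ndufb5 (165 FPKM).

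The medians of the modules lay close together. Their values of -0.06, -0.08, -0.05 and -0.01, from the NADH-binding module to the distal end, span less than the SE of any single gene, and were not tested against one another. The 6 core subunits had a median of -0.10 and the 29 supernumerary subunits one of -0.04, and after rescaling 0.08 and 0.13. By promoter motif, medians of genes with and without a match were -0.04 and -0.04 for the NRF-1 form TGCGCATG and -0.03 and -0.05 for GCATGCGC. They were -0.02 and -0.04 for ETS, and -0.09 and -0.03 for both ERR and YY1, all within the SE of a single gene.

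Wild-type 2 held the lowest value of the 8 libraries for 17 of the 35 genes, a place it held for 12.1% of all tested genes. It was the highest for 2, Ndufa12 and Ndufs5. Against the mean of the other wild-type libraries it lay at a median of -0.32 on the log2 scale over the 35 genes and at -0.04 over all tested genes, from -0.99 for Ndufa2 and -0.89 for Ndufb6 to 0.29 for Ndufa12 and Ndufs5. All 4 modules shared this, with medians of -0.36, -0.32, -0.24 and -0.38. K320E-skm 1 was the lowest for 13 of the 35 genes, and for 25.0% of all tested genes. Wild-type 1 was the highest for 11 of the 35, and for 58.2% of all tested genes.

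The same library stood low for the other nuclear genes of the respiratory chain, being the lowest for 25 of 39 subunit genes of complexes II to V. Among protein-coding genes of at least 30 FPKM, split into 6 groups by transcript length, wild-type 2 deviated from the mean of the 8 libraries by medians of -0.16, -0.01, -0.07, -0.01, 0.02 and 0.07 from the shortest to the longest. The shortest group, of 102 to 624 bases, held 12 of the 35 genes. K320E-skm 1 ran the other way, from 0.08 in the shortest to -0.22 in the longest group. The median log2 fold change between genotypes ran from -0.04 in the shortest to -0.20 in the longest group, beside the position of the short complex I transcripts above the median of all tested genes. Adipocyte markers, with 4 of 5 tested, summed to 97.9 to 118 FPKM in the K320E-skm libraries and to 172, 194, 99.1 and 116 FPKM in wild-type 1 to 4. Of the high libraries, wild-type 1 had the highest sum of complex I genes and wild-type 2 the lowest. The part of transcript length or of adipocyte RNA in these values was not tested. The median coefficient of variation of the 35 genes was 12.1% in wild-type muscle, 6.69% without wild-type 2, and 9.96% in K320E-skm muscle.

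**Figure D3:**
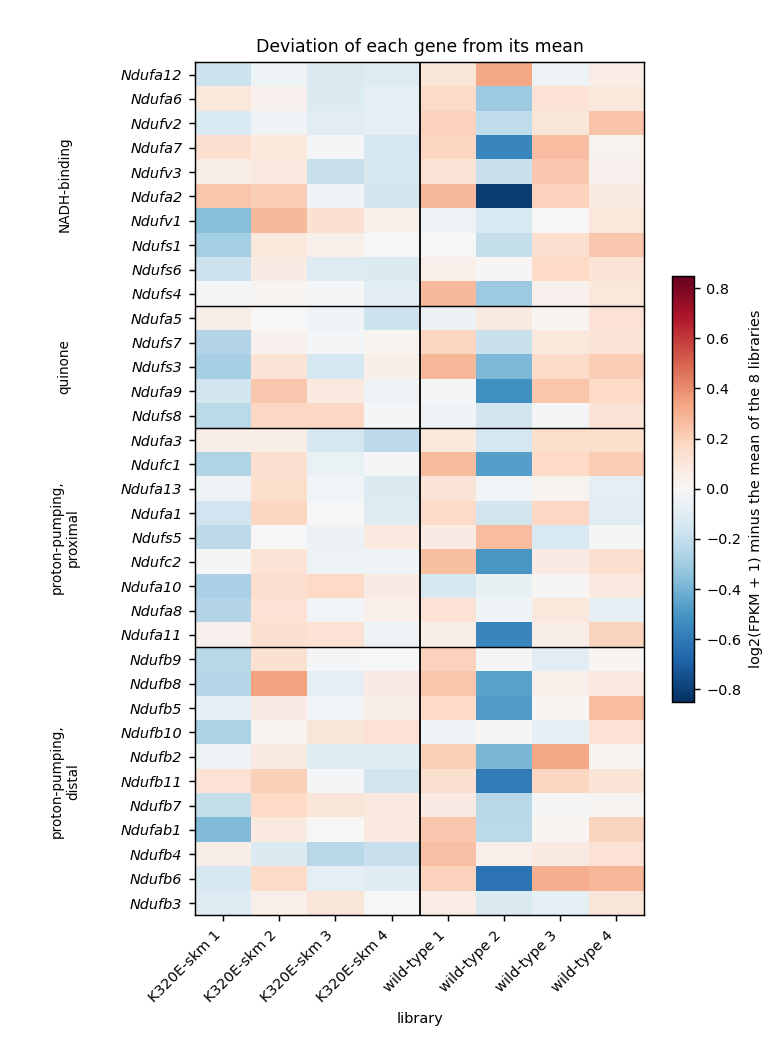
Deviation of each gene in each library from its mean over the 8 libraries, in log2(FPKM + 1), with genes grouped by module, blue for lower and red for higher. The column of wild-type 2 is blue for most genes (median -0.20), that of K320E-skm 1 is blue for many (median -0.15), and no block of genes separates the genotypes.

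The mitochondrially encoded core subunits were summed for comparison, since the complex needs both sets. Their sum was 17574, 21498, 21181 and 20420 FPKM in the K320E-skm libraries, again in order, and 21311, 28725, 23466 and 25055 FPKM in the wild-type ones. Wild-type 1 was below K320E-skm 2, and wild-type 2, the lowest for the nuclear genes, was the highest here. The ratio of the mitochondrially encoded to the nuclear sum was 3.98 ± 0.242 (SD, n = 4) in K320E-skm muscle and 4.75 ± 1.13 in wild-type muscle, or 4.21 ± 0.397 (n = 3) without wild-type 2, where the ratio was 6.37.

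By gene, mt-Nd1 was at -0.25 (11448 ± 637 against 13672 ± 1524 FPKM; SD, n = 4), mt-Nd2 at -0.41, mt-Nd4l at -0.20, mt-Nd5 at -0.30 and mt-Nd6 at 0.00. For mt-Nd3, at 67.7, 76.7, 13.4 and 8.83 FPKM against 91.8, 14.8, 105 and 93.7 FPKM, high and low libraries stood in both genotypes, and the difference was -1.07 with all libraries and -1.73 without wild-type 2 (limma adjusted p = 0.283). For mt-Nd4 the genotypes did not overlap, at 1304, 1778, 1826 and 1734 FPKM in K320E-skm against 1837, 2297, 2123 and 2172 FPKM in the wild type. Its fold change was -0.35 (SE 0.18; limma p = 0.0731, adjusted p = 0.373; exact permutation p = 0.0286, the smallest that 4 against 4 allows). None of the 7 passed an unadjusted p of 0.05 by limma with all libraries, and mt-Nd3 alone did without wild-type 2. Without that library 15.0% of all tested genes were lower at that threshold. With all libraries 9.59% of all tested genes were lower without overlap, as mt-Nd4 was. The median of the 7 was -0.30 and, after rescaling, -0.12, with mt-Nd6 at 0.18 the one above 0. The higher share of mitochondrial ribosomal RNA in K320E-skm libraries lowers all other values of a library in FPKM, and its part was not tested.

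**Figure D4:**
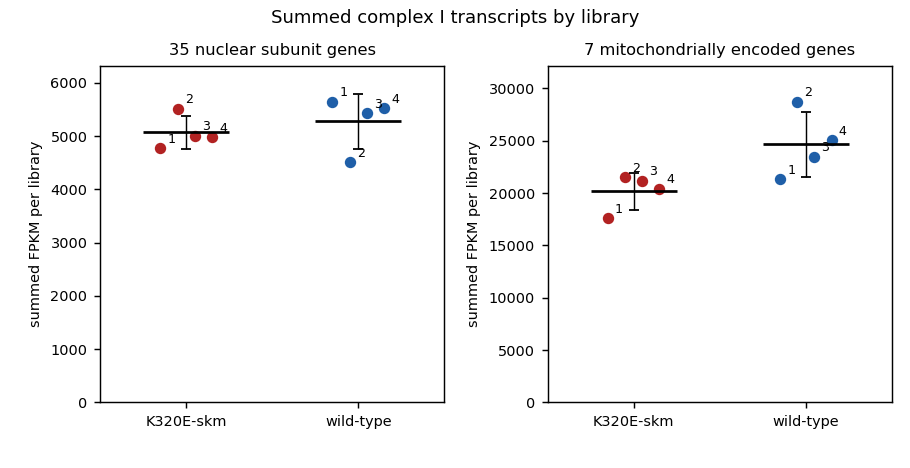
Summed FPKM per library of the 35 nuclear complex I genes (left) and of the 7 mitochondrially encoded ones (right), with the mean (bar) and SD (whiskers) of 4 libraries per genotype and library numbers beside the points. Wild-type 2 is the lowest library on the left (4507 FPKM) and the highest on the right (28725 FPKM).

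Other genes of the pathway were counted in the same way. Of 21 listed assembly factors, the proteins that build complex I and are not part of it, 20 were in the table and tested, with a median of -0.10. By limma 0 of 20 passed an adjusted p of 0.05, while 3 were lower and 0 higher at an unadjusted p of 0.05, and those 3 were also the ones lower without overlap. Among all tested genes 13.6% and 9.59% were lower by these rules, and the count of 3 is read against that background. Tmem126b, a factor for the proximal membrane arm, was at 6.46, 6.24, 5.76 and 5.43 FPKM in K320E-skm muscle and at 7.77, 6.97, 8.87 and 8.23 FPKM in the wild type (-0.36, SE 0.11, limma adjusted p = 0.287). Ndufaf5, which modifies Ndufs7, was at -0.32 (adjusted p = 0.321), and Ndufaf7, a methyltransferase that modifies the quinone module, at -0.26 (adjusted p = 0.298). After rescaling these were -0.20, -0.15 and -0.12, none with an unadjusted p under 0.05, and the median of the 20 was 0.06.

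Nuclear subunits of complexes II, III, IV and V had medians of -0.05, 0.00, 0.03 and 0.03 over 4, 9, 11 and 15 genes, and of 0.13, 0.18, 0.21 and 0.21 after rescaling. None of these 39 passed an unadjusted p of 0.05 by limma. Their joint median of 0.01 became 0.19 after rescaling and -0.13 without wild-type 2, beside -0.05, 0.13 and -0.14 for the complex I genes. Of 8 regulators of mitochondrial biogenesis, 1 was lower and 1 higher at an unadjusted p of 0.05, and 0 passed an adjusted p of 0.05. Over all tested genes those shares were 13.6% lower and 1.07% higher. After rescaling 0 of the 8 were lower, against 484 of 10521 tested genes, and 2, Ppargc1a and Pprc1, were higher, against 5.19%. Tfam, which packages mitochondrial DNA and starts its transcription, was at 10.9 ± 1.03 against 14.5 ± 2.76 FPKM (SD, n = 4; -0.37, limma adjusted p = 0.298, and -0.20 after rescaling). Ppargc1a, the coactivator PGC-1α, was at 12.1, 40.7, 13.7 and 9.58 FPKM against 7.16, 10.6, 7.01 and 9.41 FPKM (0.86, limma adjusted p = 0.33), with K320E-skm 2 far above the rest. That library had the highest sum of the 35 genes among the K320E-skm libraries, and it held the top value for 6 of them. The highest sum of all libraries was that of wild-type 1, with Ppargc1a at 7.16 FPKM. A link of Ppargc1a to these sums was not tested.

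Markers of muscle, of other cells and of fibre types were read beside these values. Skeletal muscle markers, 5 of 6 tested, summed to 13483 to 15958 FPKM in K320E-skm and 17132 to 19389 FPKM in wild-type libraries, without overlap. Their median log2 fold change was -0.02, and 0.16 after rescaling. Fast fibre markers, 10 of 10 tested, summed to 27199 to 37840 FPKM in K320E-skm muscle and 36627 to 43030 FPKM in wild-type libraries. These sums met only in K320E-skm 1 (37840 FPKM) and wild-type 4 (36627 FPKM). Of the 10, Myh4 was at 2965, 0, 0 and 0 FPKM in K320E-skm libraries and 3537, 4357, 3567 and 0 FPKM in wild-type ones. Its zeros in both genotypes enter the sums. The median was -0.34, with 3 lower at an unadjusted p of 0.05 by limma, against 13.6% of all tested genes. Lower without overlap were 5 of 10, against 9.59%. After rescaling the median was -0.16 with 2 lower, against 484 of 10521 tested genes. After quantile normalization it was -0.10 with 1 lower, against 542 of 10521. Slow or oxidative fibre markers ran from 110 to 505 against 157 to 329 FPKM, macrophage markers from 24.0 to 68.3 against 21.0 to 78.2 FPKM, and red blood cell markers from 133 to 278 against 222 to 370 FPKM. Their part in the levels of the complex I genes was not tested.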

How the data were processed

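Total RNA of 8 muscle samples was sequenced with a stranded kit, per the labels' protocols. The authors deposited FPKM per gene in 1 table. The build mm10 and the tools CASAVA, TopHat2 2.0.10 and Cufflinks 2.1.1 stand in the submitters' processing notes. Not given in the sources used here are the annotation, the strand setting, the bias correction and what was done with ribosomal RNA. FPKM are relative to all mapped fragments, so RNAs that fill more of 1 library lower its other values.

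GENCODE M21 (GRCm38) gave symbols and coordinates for 47950 of 48328 IDs. Genotype was taken from the titles. No 2 libraries held identical values. log2(FPKM + 1) was tested with limma 3.58.1 in R 4.3.3 (genotype alone, empirical Bayes with a trend, two-sided, 6 residual degrees of freedom) on the 10521 genes that reached an FPKM of 1 in 4 or more libraries, with Benjamini-Hochberg adjustment over all of them. The fit was tested on simulated data. For single values an exact permutation test, two-sided and over 70 assignments, was added. Fold changes are K320E-skm minus wild-type on that scale. The table holds no counts, so counting error is unknown. RefSeq promoter windows were searched for motif letters. Python 3.11.15, pandas 2.3.3 and matplotlib 3.10.9 were used.

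All 35 genes, all mitochondrially encoded subunits, and of other pathway lists the genes past an unadjusted p of 0.05 were named. Markers of cells and fibre types were given as sums or counts, with a few genes named. Members and lists were chosen with earlier results of these data known. Assignment of supernumerary subunits to modules follows their position in the complex, and some lie at a border. Alternatives changed the pseudocount, the filter, the scaling, the model terms (the sex label or the replicate number), the variance model and the libraries used.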

Additional observations from a re-analysis of the deposited data

Results flagged for a closer look

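A library was marked where its gap to the nearest of the 4 libraries of its genotype, divided by the range of the 4, exceeded Dixon's 95% critical value for 4 samples. The 35 genes gave 70 groups of 4, of which 4 were marked, and chance alone marks about 1 in 20. In wild-type 2, which was low for many of the genes, Ndufb6 was at 47.5 FPKM (85.0 to 91.9 in the other wild-type libraries, gap over range 0.845), Ndufb11 at 81.7 FPKM (134 to 141, 0.871) and Ndufc1 at 154 FPKM (240 to 257, 0.833). Ndufb6 was also high in K320E-skm 2, at 82.9 FPKM against 67.3 to 69.9 FPKM in the other K320E-skm libraries (0.833).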

How the results depend on the processing

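Of the 35 genes, 0 passed an adjusted p of 0.05 in any of the 17 alternatives planned or in the 1 added after the data were seen. The smallest adjusted p by limma was 0.372 as reported and ran from 0.29 (without wild-type 2) to 0.663 (without K320E-skm 3) over the alternatives. The median of -0.05 became 0.13 after median-ratio rescaling, where 20 of the 35 genes changed sign, by the construction of that scaling, which moves all genes. It was 0.03 after quantile normalization, -0.02 with equal FPKM sums and 0.05 after rescaling without wild-type 2. Leaving out 1 library at a time gave medians from -0.14 (without wild-type 2) to 0.00. The count of genes lower at an unadjusted p of 0.05 went from 0 to 1 (Ndufb4) with no filter on low values, and ran from 0 to 1 with 1 library left out, the 1 being Ndufb4 without K320E-skm 1 and Ndufb6 without wild-type 2. The count lower without overlap went from 0 to 1 with equal FPKM sums, and ran from 0 to 9 with 1 library left out, 9 without wild-type 2 and 2 or fewer otherwise. The cause of these changes was not tested, and neither was the part of the smaller number of libraries. With the sex label as a term, although 1 label goes against its transcripts, the median was -0.05 and the smallest adjusted p 0.427. With the replicate number as a block (replicate block) the median stayed at -0.05 and no gene was called. The labels name no pairing beyond the shared number. Deviations of same-numbered libraries correlated across genes at 0.16, 0.02, 0.04 and 0.04. Those of libraries with different numbers correlated at -0.13 to 0.09, which does not settle whether the libraries were paired.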
